A study of Mus musculus with 12 samples.

Results

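Genes of the Notch pathway and of the switch between the secretory and the absorptive fate were followed in sorted intestinal stem cells (ISCs). They were 10 genes chosen by symbol, namely the receptors *Notch1* and *Notch2*, the ligands *Dll1*, *Dll4* and *Jag1*, the target *Hes1*, its relative *Hes6*, the feedback inhibitor *Nrarp*, and the secretory regulators *Atoh1* and *Gfi1*. These genes and the lists used below were chosen with earlier results of these data known. Shares of all genes set beside their counts are thus a description. The count table holds 47729 genes. Each symbol occurred once in it, and 10 of 10 passed the filter on low counts in every comparison.

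Notch signalling passes between touching cells. A ligand of the Delta or Jagged kind on one cell binds a receptor on its neighbour, the receptor is cut, and its inner part enters the nucleus, where it joins the DNA-binding protein RBPJ and switches on genes such as *Hes1*. HES1 is a repressor of *Atoh1*, the gene that starts the secretory program of Paneth, goblet and enteroendocrine cells. In the crypt, ISCs receive the signal from neighbours that display the ligands, so a cell with strong Notch input stays a stem cell or takes the absorptive path, and a cell that escapes it turns on *Atoh1* and the ligands.

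ISCs were sorted as the viable, CD31-, CD45-, TER119-, EpCAM+, CD24- cells with the brightest EGFP. The mice carried the *Lgr5-EGFP-IRES-creERT2* allele, which drives EGFP from the *Lgr5* locus, and the cells came from their small intestine. All 4 groups had this allele, came from mice of 8 to 10 weeks of both sexes (the sex of each library is not stated), and had 3 libraries. Ctrl mice were not restrained (libraries 1, 2 and 3), and by the restraint protocol of the study food and water were withheld from them for the same time. Stress mice are labelled CRS, the study's short form for chronic restraint stress, but the study states a single restraint for the sequenced mice. The 3 h of a restraint are those of its chronic protocol. The stress libraries were 1+2, 3 and 4+5+6, whose joined numbers read as pools of several mice. Vehicle mice received 1 intraperitoneal injection of sulfobutylether-β-cyclodextrin (libraries 3, 5 and 6), and CORT mice received 1 injection of corticosterone, the main glucocorticoid of mice, at 5 mg/kg in that solution (libraries 2, 4 and 5). The labels do not say that each library is a separate mouse, so p-values measure the spread between these libraries.

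Total counts per library were 16152289 to 16943362 in Ctrl, 15934907 to 17135770 in stress, 16465961 to 31280267 in vehicle and 29426183 to 69533214 in CORT. Levels are given as CPM (counts scaled to library size with TMM factors), and as FPKM, which also divides by transcript length, where genes are compared with each other. The summed level of 6 ISC markers was 10672 to 13929 CPM in the 12 libraries. *Olfm4* alone made up 6880 to 10343 CPM of this sum. Of the 6 ISC markers, 1 was called lower in stress (0.59% of all tested genes) and 3 in CORT (4.5%). In each comparison, 0 were called higher, and 2 log2 fold changes in stress and 1 in CORT were above 0. *Ascl2* was at 138 to 148 CPM in Ctrl, 53.8 to 68.9 in stress, 149 to 171 in vehicle and 59.2 to 107 in CORT. The 6 tuft cell markers summed to at most 8.88 CPM, 6 enteroendocrine markers to 9.50 to 65.1 CPM and 6 markers of stroma and endothelium to at most 3.23 CPM. The 6 blood cell markers summed to at most 1399 CPM, of which *Cd74* made up 1396 CPM. Each of the other blood cell markers was at most 6.60 CPM in any library. The 6 markers of enterocytes summed to 81.9 to 104 CPM in Ctrl and to 693 (1+2), 243 (3) and 1491 (4+5+6) CPM in stress, and 6 of 6 were called higher in stress. Their part in the stress results below was not tested. In bulk RNA, fewer cells of a type and less RNA per cell cannot be told apart.

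*Dll1*, *Hes6* and *Nrarp* were the genes whose treated libraries lay below all control libraries in both stress vs. Ctrl and CORT vs. vehicle, and the 250 bases before a transcription start of each, outside its gene model, are shown for that reason. They are RefSeq sequences on GRCm38.p6, the same assembly as mm10, printed 5′ to 3′ on the strand of the gene. Capitals mark the E-box CANNTG on either strand, the letters that bHLH proteins such as ATOH1 recognise.
*Nrarp*, chr2:25180508-25180757 (+ strand): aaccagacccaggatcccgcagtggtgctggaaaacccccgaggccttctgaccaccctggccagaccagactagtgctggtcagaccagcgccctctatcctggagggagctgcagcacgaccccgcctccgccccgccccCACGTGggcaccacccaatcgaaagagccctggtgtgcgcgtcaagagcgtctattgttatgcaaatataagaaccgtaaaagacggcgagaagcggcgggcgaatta
*Dll1*, chr17:15376933-15377182 (- strand): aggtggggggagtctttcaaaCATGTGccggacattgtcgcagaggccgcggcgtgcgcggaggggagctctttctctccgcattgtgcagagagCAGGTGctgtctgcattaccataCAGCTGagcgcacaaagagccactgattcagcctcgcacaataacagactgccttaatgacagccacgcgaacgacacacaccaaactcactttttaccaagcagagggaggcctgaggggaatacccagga
*Hes6*, chr1:91414039-91414288 (- strand): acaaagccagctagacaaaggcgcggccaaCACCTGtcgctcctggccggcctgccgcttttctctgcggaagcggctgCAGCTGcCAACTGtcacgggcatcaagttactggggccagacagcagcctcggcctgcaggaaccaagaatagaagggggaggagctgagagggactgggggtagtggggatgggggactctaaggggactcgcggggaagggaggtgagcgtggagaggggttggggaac
The *Nrarp* window held 1 E-box, and the *Dll1* and *Hes6* windows held 3 each. None of these E-boxes overlapped a match to another searched motif. Promoters were matched for 9 of the 10 genes (all but *Hes1*), with 12 windows in all. An E-box occurred in 8 of the 12 windows and in 66.2% of all 32851 promoter windows of the same length. The N-box CACNAG, bound by HES proteins, occurred in 5 windows (36.7% of all), the glucocorticoid receptor half-site AGAACA in 1 window, a second *Dll1* start (16.1% of all), and the RBPJ core TGGGAA in 0 windows (21.6% of all), each searched on both strands. These counts describe the letters of these windows only.

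Per transcript length, *Hes1* had the highest level of the 10 genes. It was at 98.5 ± 18.0 FPKM in Ctrl (SD, n = 3), 73.4 ± 6.92 in stress, 81.2 ± 2.99 in vehicle and 82.4 ± 16.9 in CORT, and 94.3% of 14415 tested genes were below it by their mean over the 12 libraries. *Hes6* followed in each group, from 52.6 ± 8.01 FPKM in stress to 77.1 ± 9.50 in vehicle, where its range overlapped that of *Hes1*. In Ctrl, *Nrarp* came next at 25.7 ± 1.31 FPKM, followed by *Dll1* at 16.4 ± 1.38 and *Notch1* at 14.8 ± 2.37, and the ranges of the last 2 overlapped.
The other genes were low. *Notch2*, *Dll4* and *Atoh1* had Ctrl means of 4.07 ± 0.471, 4.0 ± 1.15 and 3.84 ± 0.410 FPKM and did not differ beyond their spread. *Jag1* was at 2.27 ± 0.844 and *Gfi1* at 0.920 ± 0.455 FPKM. In CORT, *Notch1* at 20.6 ± 2.75 FPKM stood above *Nrarp* at 14.1 ± 1.64, and *Dll1* at 8.98 ± 0.983 followed, with no overlap between these 3 neighbours. Of the 3 ligands, *Dll1* had the highest level in all 4 groups. Its FPKM was 2.15 to 5.79 times that of *Dll4* over the 12 libraries.

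**Figure D1:**
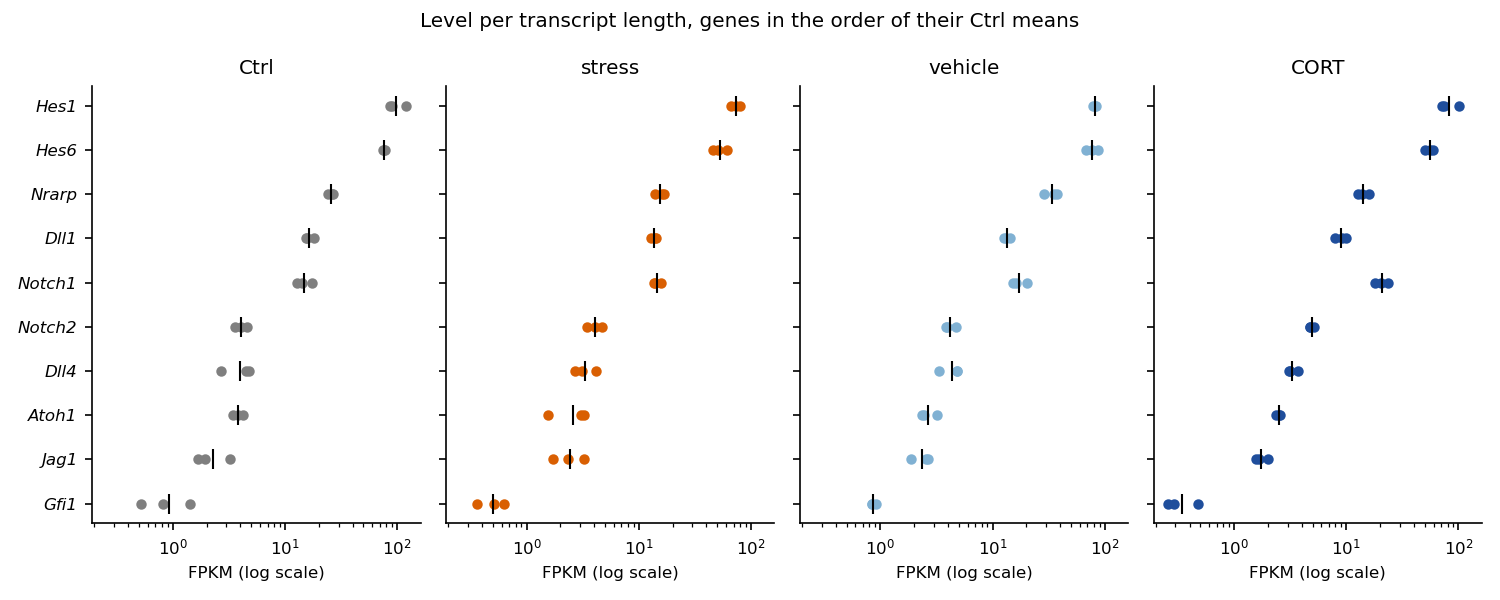
Level of the 10 genes in FPKM (log axis) in each library of the 4 groups, with a point for each library, a tick for the mean of 3 libraries, and the genes ordered by their Ctrl means. *Hes1* and *Hes6* lie highest and *Gfi1* lowest in each group, and of the 4 panels the mean of *Notch1* lies to the right of that of *Nrarp* only in CORT.

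The comparison of stress with Ctrl asks what a single restraint did to these genes. *Nrarp*, whose product binds the cut Notch receptor with RBPJ and limits its activity (chromosome 2, 25180758 to 25183339, mm10, + strand, ENSMUSG00000078202), fell 1.64-fold. It was at 76.9, 76.4 and 68.4 CPM in Ctrl 1, 2 and 3, and at 40.3, 49.6 and 44.9 in stress 1+2, 3 and 4+5+6. All stress libraries were thus below all Ctrl libraries. The log2 fold change was -0.72 (95% confidence interval -0.95 to -0.48, adjusted p = 0.0101, edgeR's quasi-likelihood test with Benjamini-Hochberg adjustment, as for all adjusted p-values here). It was 1 of 10 genes called lower, where 0.59% of the 13722 genes tested were called lower, and 0 of 10 were called higher, where 1.3% were (0 also at an unadjusted p below 0.05 and with DESeq2). The call was lost without Ctrl 1 (adjusted p = 0.0778) and without Ctrl 2 (0.0599), with log2 fold changes of -0.69 in each. It was also lost without a filter on low counts (adjusted p = 0.0618) and with limma on log2(FPKM + 1) without a filter (0.0857).

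*Hes1*, *Hes6* and the fate genes *Atoh1* and *Gfi1* were also lower in level without passing the test. *Hes6*, whose product can oppose HES1 (chromosome 1, 91411483 to 91414038, - strand), was at 118, 119 and 121 CPM in Ctrl and at 81.5, 101 and 70.9 in stress, in the order of the libraries above. These groups did not overlap. Its log2 fold change was -0.50 (95% confidence interval -0.77 to -0.23, adjusted p = 0.0740). With a library left out it ranged from -0.64 without stress 3 (adjusted p = 0.0035) to -0.39 without stress 4+5+6 (adjusted p = 0.179), and the adjusted p was at most 0.243. DESeq2 gave an adjusted p of 0.0054.
*Hes1* (chromosome 16, 30064384 to 30067796, + strand) was at 137, 144 and 182 CPM in Ctrl and at 115, 133 and 100.3 in stress, again without overlap. Its log2 fold change was -0.41 (-0.70 to -0.12, adjusted p = 0.165), and ranged from -0.52 without stress 3 (adjusted p = 0.0406) to -0.27 without Ctrl 3 (adjusted p = 0.405). With DESeq2 the adjusted p of *Hes1* was 0.0459. *Atoh1* (chromosome 6, 64729125 to 64731245, + strand) was at 8.18, 10.2 and 8.96 CPM in Ctrl and at 7.33, 3.82 and 7.44 in stress. The stress values lay below Ctrl, and that of stress 3 rested on 63 counts, where 1 read pair makes up to 4 counts. The log2 fold change of *Atoh1* was -0.55 with an interval from -1.19 to 0.09 (adjusted p = 0.416), and it was -0.30 without stress 3.
*Gfi1*, a repressor that acts after *Atoh1* and steers secretory precursors away from the enteroendocrine fate (chromosome 5, 107716657 to 107726036, - strand), was at 3.92, 2.69 and 1.65 CPM in Ctrl and 1.68, 2.12 and 1.15 in stress. The groups overlapped, and the log2 fold change was -0.73 (-1.78 to 0.31, adjusted p = 0.523), or -0.39 without Ctrl 1. It had 20 to 67 counts per library in these groups.

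The receptors and ligands had log2 fold changes between -0.28 and 0.07 in stress. *Notch1*, the main receptor of crypt cells (chromosome 2, 26457903 to 26516663, - strand), was at 145, 129.7 and 168 CPM in Ctrl and at 132, 136 and 152 in stress, with a log2 fold change of -0.08 (-0.32 to 0.17, adjusted p = 0.812). *Notch2* (chromosome 3, 98013527 to 98150361, + strand) had 0.02 (-0.27 to 0.31, adjusted p = 0.960). *Dll1* (chromosome 17, 15367354 to 15376872, - strand) was at 57.0, 70.1 and 57.3 CPM in Ctrl and at 50.9, 49.9 and 52.8 in stress, with no overlap and a log2 fold change of -0.26 (-0.50 to -0.03, adjusted p = 0.271) that was -0.16 without Ctrl 2. *Dll4* (chromosome 2, 119325784 to 119335962, + strand) and *Jag1* (chromosome 2, 137081456 to 137116644, - strand) overlapped between the groups, with log2 fold changes of -0.28 and 0.07 and intervals that were wide, -0.81 to 0.24 and -0.56 to 0.69.
In all, 5 of 10 genes (*Dll1*, *Hes1*, *Hes6*, *Nrarp* and *Atoh1*) had every stress library below every Ctrl library, against 10.2% of all tested genes, and 8 of 10 log2 fold changes were below 0. The median log2 fold change was -0.35 for the 10 genes and -0.0028 for all tested genes.

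**Figure D2:**
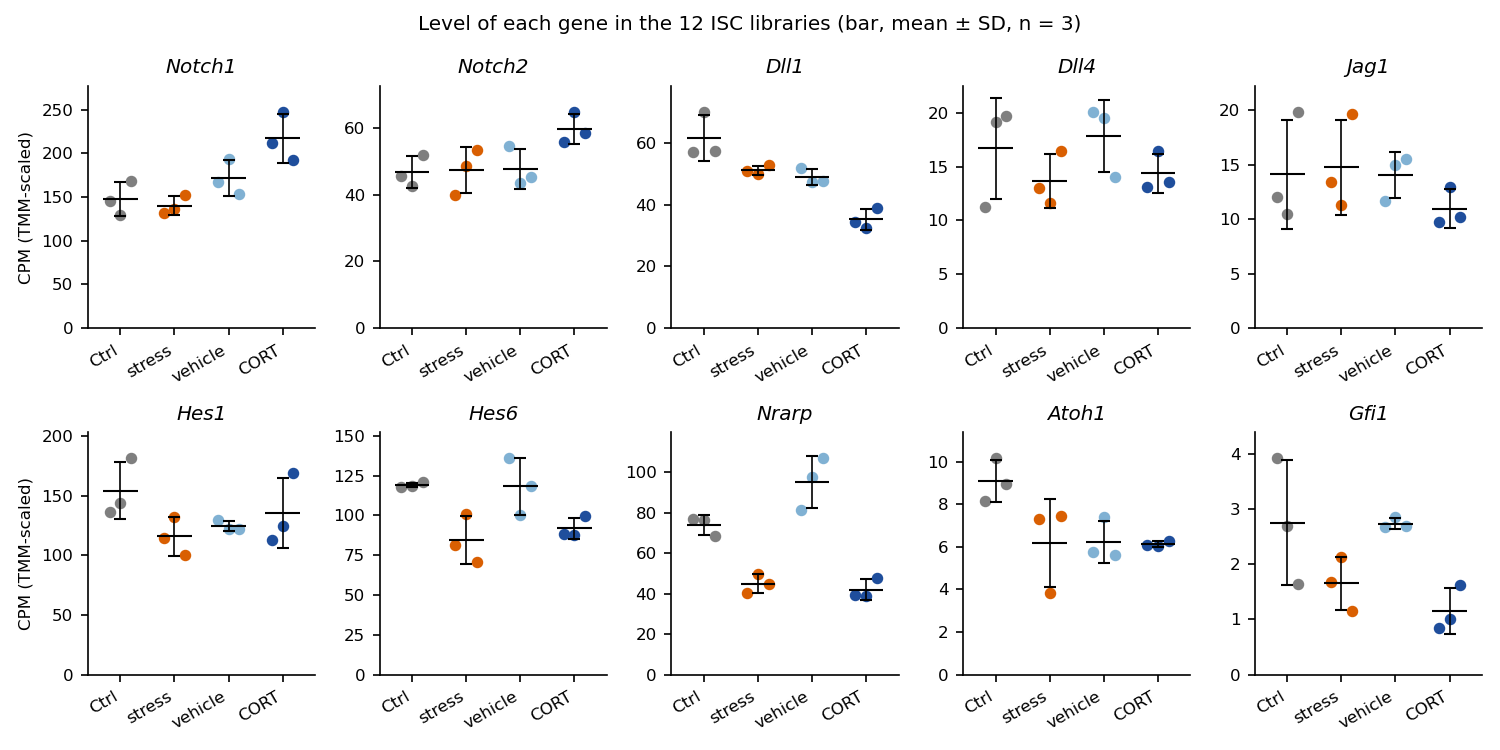
CPM of each of the 10 genes in the 12 libraries, with a point for each library and a bar for the mean ± SD of 3 libraries, on axes that start at 0. The *Nrarp* libraries of stress (40.3 to 49.6 CPM) and CORT (38.9 to 47.8 CPM) lie below all Ctrl and vehicle libraries (68.4 to 107 CPM).

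The comparison of CORT with vehicle asks what the hormone alone did. *Nrarp* fell again, here 2.28-fold, from 81.3, 97.6 and 107 CPM in vehicle 3, 5 and 6 to 39.5, 38.9 and 47.8 in CORT 2, 4 and 5. The lowest vehicle library was above the highest CORT library. The CORT levels overlapped those of stress (40.3 to 49.6 CPM), whereas the vehicle levels lay above those of Ctrl (68.4 to 76.9 CPM). The log2 fold change was -1.19 (95% confidence interval -1.46 to -0.91, adjusted p = 7.15e-04), and its adjusted p was at most 0.0187 under 15 alternative settings. *Nrarp* was the 1 gene of the 10 that was called with a change above 2-fold, where 1.87% of 14656 genes were.
The ligand *Dll1* fell 1.39-fold. It was at 51.8, 47.4 and 47.6 CPM in vehicle and at 34.3, 32.5 and 39.1 in CORT, without overlap. Its log2 fold change was -0.48 (-0.70 to -0.26, adjusted p = 0.0185). The call was lost without vehicle 3 (adjusted p = 0.0522), CORT 2 (0.0622) or CORT 4 (0.0912).
Thus 2 of 10 genes were called lower, where 4.5% of all tested genes were, and 0 of 10 were called higher, where 3.64% were. For the higher direction, 2 genes had an unadjusted p below 0.05 (*Notch1* and *Notch2*), where 23.4% of all tested genes had one in either direction. DESeq2 called 1 higher (*Notch1*), where it called 823 of 22292 genes higher.

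*Notch1* and *Notch2*, the receptors, were the genes with the highest positive differences in CORT. *Notch1* was at 167, 194 and 153 CPM in vehicle and at 212, 248 and 193 in CORT. The groups overlapped only by the CORT 5 library, just under vehicle 5, and the log2 fold change was 0.34 (0.08 to 0.60, adjusted p = 0.111; adjusted p = 0.0226 with DESeq2). *Notch2* was at 54.6, 43.4 and 45.2 CPM in vehicle and at 55.7, 64.8 and 58.5 in CORT, which did not overlap (log2 fold change 0.32, 0.08 to 0.56, adjusted p = 0.104). With a library left out, *Notch2* ranged from 0.26 to 0.43. It was called without vehicle 3 (adjusted p = 0.0384) and had an adjusted p of up to 0.318 without the others.
The target *Hes1* was at 129.8, 123 and 123 CPM in vehicle and at 113, 125 and 169 in CORT. CORT 5 stood above the other libraries, the groups overlapped, and the log2 fold change of 0.11 (-0.19 to 0.42, adjusted p = 0.683) became -0.08 without CORT 5. *Hes6* was at 136, 100.4 and 119 CPM in vehicle and 88.3, 87.7 and 99.5 in CORT, without overlap, by a narrow gap between vehicle 5 and CORT 5. Its log2 fold change was -0.37 (-0.62 to -0.12, adjusted p = 0.0809). It ranged from -0.47 without vehicle 5 (adjusted p = 0.0344) to -0.26 without vehicle 3 (adjusted p = 0.186). *Hes6* was called with DESeq2 (adjusted p = 0.0173) and with limma on log2(FPKM + 1) (0.0443) and log2(FPKM + 0.1) (0.0436).

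Neither *Atoh1* nor *Gfi1* was called in CORT, and they were not tested against each other. *Atoh1* was at 5.76, 7.39 and 5.60 CPM in vehicle and at 6.08, 6.02 and 6.29 in CORT, with a log2 fold change of -0.03 (-0.46 to 0.41, adjusted p = 0.953) that turned to 0.11 without vehicle 5. *Gfi1* was at 2.67, 2.85 and 2.69 CPM in vehicle and at 0.836, 0.998 and 1.62 in CORT. Its groups did not overlap, and its log2 fold change of -1.27 (-2.10 to -0.44) was the lowest of the 10 genes but did not pass the test (adjusted p = 0.0699). It passed with DESeq2 (0.0310), with at least 10 counts in every library (0.0407), and with all libraries thinned to the same total (0.0291). *Gfi1* had 45 to 83 counts per vehicle and 47 to 59 per CORT library, and as 1 read pair makes up to 4 counts, the read pairs were fewer. Markers of Paneth cells, which express *Gfi1*, summed to 186 to 211 CPM in vehicle and 104 to 116 in CORT, with 4 of 6 called lower. The sum was 136 to 173 CPM in Ctrl. Of these markers, *Mmp7* was at 79.1 to 99.9 CPM in vehicle, 31.8 to 42.1 in CORT and 16.5 to 25.7 in Ctrl. The 6 goblet markers summed to 417 to 602 CPM in vehicle and 389 to 732 in CORT. The part of the Paneth and goblet markers in the value of *Gfi1* was not tested.
The ligands *Dll4* and *Jag1* had log2 fold changes of -0.31 (-0.71 to 0.09, adjusted p = 0.332) and -0.36 (-0.77 to 0.04, adjusted p = 0.266) in CORT, with overlapping groups. In all, the CORT libraries lay below the vehicle libraries for 4 of 10 genes (14.5% of all tested genes) and above them for 1 (14.3%). The median log2 fold change was -0.34 for the 10 genes and 0.014 for all tested genes.

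Ratios of FPKM within a library do not depend on how libraries are scaled to each other. They were formed after the values had been seen and are given without a test. The ratio of *Nrarp* to *Notch1* was 1.87, 2.08 and 1.40 in Ctrl, 1.03, 1.19 and 1.02 in stress, 1.75, 1.74 and 2.47 in vehicle and 0.671, 0.538 and 0.881 in CORT. Each treated library was thus below each of its control libraries. The ratio of *Notch1* to *Dll1* was 0.705 to 1.11 in Ctrl and 0.974 to 1.10 in stress, which overlapped, and was 1.13, 1.54 and 1.20 in vehicle and 2.22, 2.97 and 1.83 in CORT, which did not. The ratio of *Hes1* to *Atoh1* was 21.0 to 31.0 in Ctrl, 20.7 to 51.7 in stress, 25.4 to 34.4 in vehicle and 27.8 to 40.2 in CORT, and overlapped in both comparisons.

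**Figure D3:**
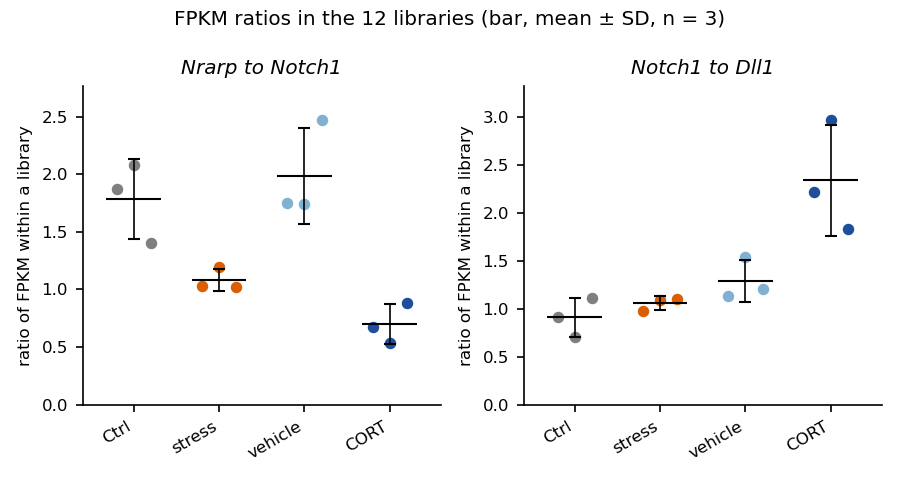
Ratio of the FPKM of *Nrarp* to *Notch1* (left) and of *Notch1* to *Dll1* (right) in the 12 libraries, with a point for each library and a bar for the mean ± SD of 3 libraries. The left ratio is 1.02 to 1.19 in stress and 0.538 to 0.881 in CORT, below all Ctrl and vehicle libraries, and the right ratio is highest in CORT, at 1.83 to 2.97.

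The control groups were compared with each other, as vehicle vs. Ctrl, which shares its libraries with the comparisons above. They differ by the injection and its solution. Food and water were withheld from Ctrl, which is not stated for vehicle. These differences cannot be told apart here. Of the 10 genes, 0 were called by edgeR, where 0.799% of 13642 genes were, and 0 by DESeq2, while 4 had an unadjusted p below 0.05 (11.1% of all tested genes). *Nrarp* had a log2 fold change of 0.37 (0.14 to 0.60, adjusted p = 0.171), with every vehicle library above every Ctrl library (8.18% of all tested genes). *Atoh1* had -0.54 (-1.02 to -0.06, adjusted p = 0.372), *Dll1* -0.33 (adjusted p = 0.240) and *Hes1* -0.30 (adjusted p = 0.296), with every vehicle library below every Ctrl library (8.14% of all). The CORT levels of *Atoh1* (6.02 to 6.29 CPM) thus lay below the Ctrl levels (8.18 to 10.2 CPM), although they did not lie below vehicle.
Whether a gene responded differently to stress and to CORT was tested with the interaction, that is the log2 fold change in stress minus that in CORT. Of the 10 genes, 0 were called by edgeR (0.388% of 14415 genes) and 0 by DESeq2, and 3 had an unadjusted p below 0.05 (12.5% of all tested genes). These were *Nrarp*, at 0.47 (0.11 to 0.82, adjusted p = 0.247), *Hes1*, at -0.53 (-0.97 to -0.08, adjusted p = 0.307), and *Notch1*, at -0.42 (-0.78 to -0.06, adjusted p = 0.317). The log2 fold changes in stress and CORT were below 0 in both for 6 of the 10 genes and of opposite sign for 3, *Notch1*, *Jag1* and *Hes1*.

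**Figure D4:**
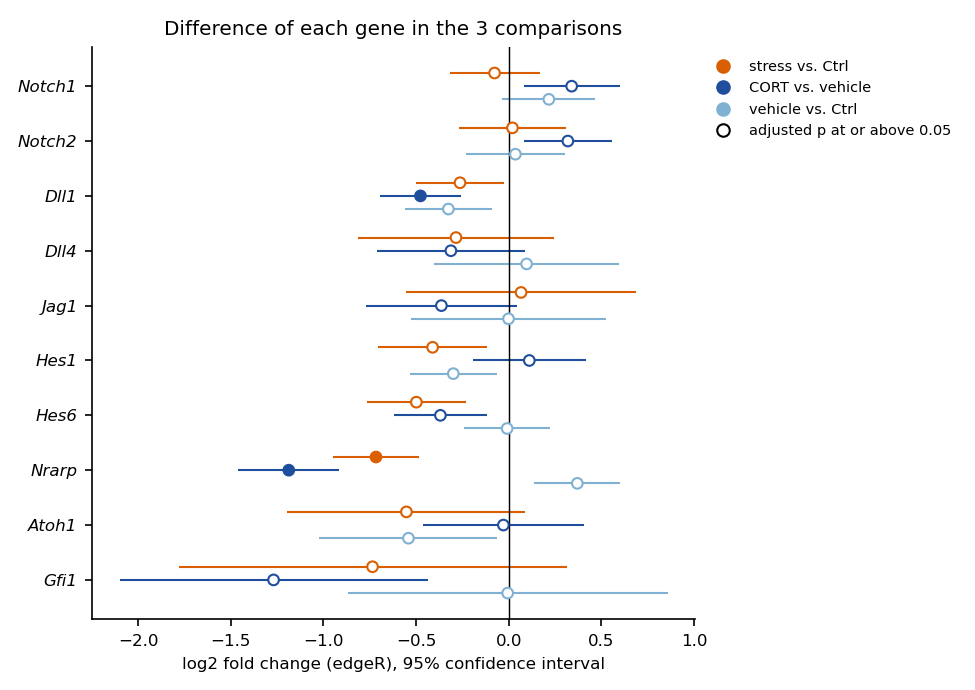
Log2 fold change of the 10 genes (edgeR, points) with the 95% confidence interval (lines) in stress vs. Ctrl, CORT vs. vehicle and vehicle vs. Ctrl, where filled points have an adjusted p below 0.05. The filled points are *Nrarp* in stress (-0.72) and CORT (-1.19) and *Dll1* in CORT (-0.48).

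The remaining parts of the pathway were taken from lists of 60 other Notch genes. In stress, 0 of 49 tested were called by edgeR, and 4 had an unadjusted p below 0.05 (15.2% of all tested genes). DESeq2 called 1 of them (557 of 20756 genes in all). Their median log2 fold change was -0.01. In CORT, 3 of 52 tested were called, 1 higher (3.64% of all tested genes) and 2 lower (4.5%), with the same counts by DESeq2. An unadjusted p below 0.05 was found for 11 of the 52, against 23.4% of all, so none of these shares exceeded that of all genes. The median was -0.05. The 3 were 1 of 5 genes of receptor glycosylation and 2 of 12 corepressors. *Tle1*, a Groucho corepressor that works with HES proteins, rose 1.97-fold, from 69.9, 66.8 and 67.0 CPM in vehicle to 136, 132 and 134 in CORT. These libraries were far apart for the spread within each group (log2 fold change 0.98, 0.83 to 1.13, adjusted p = 1.15e-04). In stress, *Tle1* was at 99.2 to 137 CPM against 75.1 to 96.1 in Ctrl, with a log2 fold change of 0.50 (adjusted p = 0.10; 0.0109 with DESeq2).
*Lfng*, which adds sugars to Notch receptors and tunes which ligand they answer to, fell from 57.4, 51.1 and 51.7 CPM in vehicle to 32.2, 35.0 and 40.7 in CORT (log2 fold change -0.58, -0.82 to -0.34, adjusted p = 0.0118; 0.0610 without CORT 4). *Spen*, an RBPJ corepressor, fell from 101 to 123 CPM to 87.4 to 91.4 CPM (log2 fold change -0.33, adjusted p = 0.0408). Its call was lost without any 1 of vehicle 3, vehicle 5, CORT 2, CORT 4 or CORT 5 (adjusted p from 0.0873 to 0.155).
The other roles, from the remaining receptors and ligands to ligand ubiquitination, receptor cleavage, the nuclear activation complex and negative regulators, held no gene that passed edgeR's test in CORT. The most abundant of them by mean FPKM over the 12 libraries were *Psenen* of the γ-secretase (90.8 FPKM), the RBPJ cofactor *Snw1* (40.6), the ubiquitin ligase *Dtx4* (24.4), *Mib2* (12.8), *Notch4* (1.24) and *Jag2* (1.06). The corepressor *Ctbp1* was at 128 FPKM. Of the 7 other Hes and Hey genes, *Hes5* had the highest mean, at 0.410 FPKM.

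Among 23 regulators of the secretory lineage, genes fell in both treatments. In stress, 3 of 19 tested genes were called lower (0.59% of all tested genes), with 17 of 19 log2 fold changes below 0 and a median of -0.61. In CORT, 6 of 18 were called lower (4.5% of all), with 17 of 18 below 0 and a median of -0.57. Those called in stress were *Sox4*, *Foxa1* and *Foxa3*, and those called in CORT were these 3 with *Xbp1*, *Klf4* and *Pou2f3*.
*Sox4*, a factor of secretory precursors, fell from 364, 319 and 359 CPM in Ctrl to 252, 233 and 240 in stress (log2 fold change -0.52, adjusted p = 0.0168). In CORT it fell from 341, 333 and 268 to 152, 163 and 195 CPM (log2 fold change -0.89, adjusted p = 0.0029). *Foxa1*, a forkhead factor needed by goblet and enteroendocrine cells, fell from 43.0 to 50.0 CPM in Ctrl to 29.2 to 30.5 in stress (log2 fold change -0.63; adjusted p = 0.0190). It fell from 41.2 to 50.7 CPM in vehicle to 21.6 to 31.3 in CORT (log2 fold change -0.77; adjusted p = 0.0130).
*Foxa3*, a forkhead factor of the same family, had -0.63 in stress (adjusted p = 0.0358) and -0.96 in CORT (adjusted p = 0.0027). In CORT, *Xbp1*, which builds the secretory apparatus, fell from 116, 124 and 174 CPM to 63.0, 77.2 and 88.4 (log2 fold change -0.86, adjusted p = 0.0142). Its log2 fold change in stress was -0.35 (adjusted p = 0.0911, or 0.0272 with DESeq2). *Klf4*, a goblet cell factor (-0.86, adjusted p = 0.0348), and *Pou2f3*, the factor of tuft cells (-1.14, adjusted p = 0.0317), fell in CORT, *Pou2f3* from 3.33 to 4.59 CPM to 1.74 to 1.93 CPM.
With 1 library left out, the number called lower in stress was between 0 (without Ctrl 1, Ctrl 3 or stress 4+5+6) and 4 (without stress 3), and was 1 without Ctrl 2 or stress 1+2. In CORT it was 2 without CORT 4, 5 without vehicle 3 and 4 without any other library. All genes called lower were 14 to 289 in stress and 269 to 526 in CORT in these fits. *Klf4* was not called without any 1 of the 6 libraries (adjusted p from 0.0504 to 0.0993), *Pou2f3* without any but vehicle 3 (0.0827 to 0.118), and *Foxa1* (0.0588) and *Xbp1* (0.0606) without CORT 4. Of the markers of the secretory cells, the 6 goblet markers summed to 490 to 613 CPM in Ctrl and to 504 to 1457 in stress, with 2 of 6 called higher, and the 6 Paneth markers to 136 to 173 in Ctrl and 169 to 263 in stress, with 1 of 6 called higher. In CORT, 4 of the 6 Paneth markers were called lower and 6 of 6 log2 fold changes were below 0 (median -0.67), while the goblet markers had a median of 0.06. Of the 6 enteroendocrine markers, 5 log2 fold changes were below 0 in each treatment, with medians of -0.24 in stress and -0.21 in CORT. *Neurod1* is both in this marker list and among the secretory regulators. The 2 tested tuft markers had medians of -0.48 in stress and 0.21 in CORT. The sort gate takes CD24- cells, and their part in these results was not tested.

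Of 9 regulators of the absorptive lineage, 2 fell (0.59% of all tested genes were called lower) and 1 rose (1.3%) in stress, and 4 fell in CORT (4.5%). In stress, *Cdx2*, the master factor of intestinal identity, fell to 208, 264 and 242 CPM, from 395, 452 and 366 in Ctrl (log2 fold change -0.76; adjusted p = 0.0101). *Hnf4a*, a nuclear receptor of enterocytes and at 269 FPKM the highest of the lists, had -0.37 (adjusted p = 0.0440). In CORT, *Cdx2* fell from 385 to 406 CPM to 191 to 254 CPM (-0.90, adjusted p = 0.0021), and *Hnf4a* (-0.40, adjusted p = 0.0179), *Gata4* (-0.57, adjusted p = 0.0041) and *Elf3* (-0.68, adjusted p = 0.0089) fell as well. *Maf*, a factor of mature enterocytes, rose in stress from 4.02 to 4.78 CPM to 25.1 (1+2), 8.18 (3) and 40.7 (4+5+6) CPM (log2 fold change 2.49, adjusted p = 0.0282), the same order of libraries as the summed enterocyte markers. Without stress 4+5+6 its log2 fold change was 1.92 (adjusted p = 0.0726). Without Ctrl 1, 0 of them were called in stress, and without Ctrl 2, 0. *Maf* and *Hnf4a* were called there in 1 of the 6 fits with a library left out, that without stress 3, and the *Hnf4a* call in CORT was lost without vehicle 5, CORT 4 or CORT 5 (adjusted p from 0.0658 to 0.0803).
In vehicle vs. Ctrl, 1 of 74 tested genes of all these lists was called, the corepressor *Tle3* (log2 fold change -0.62). In the interaction, 0 of 80 were called by edgeR and 0 by DESeq2, with 6 at an unadjusted p below 0.05 (12.5% of all tested genes).

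**Figure D5:**
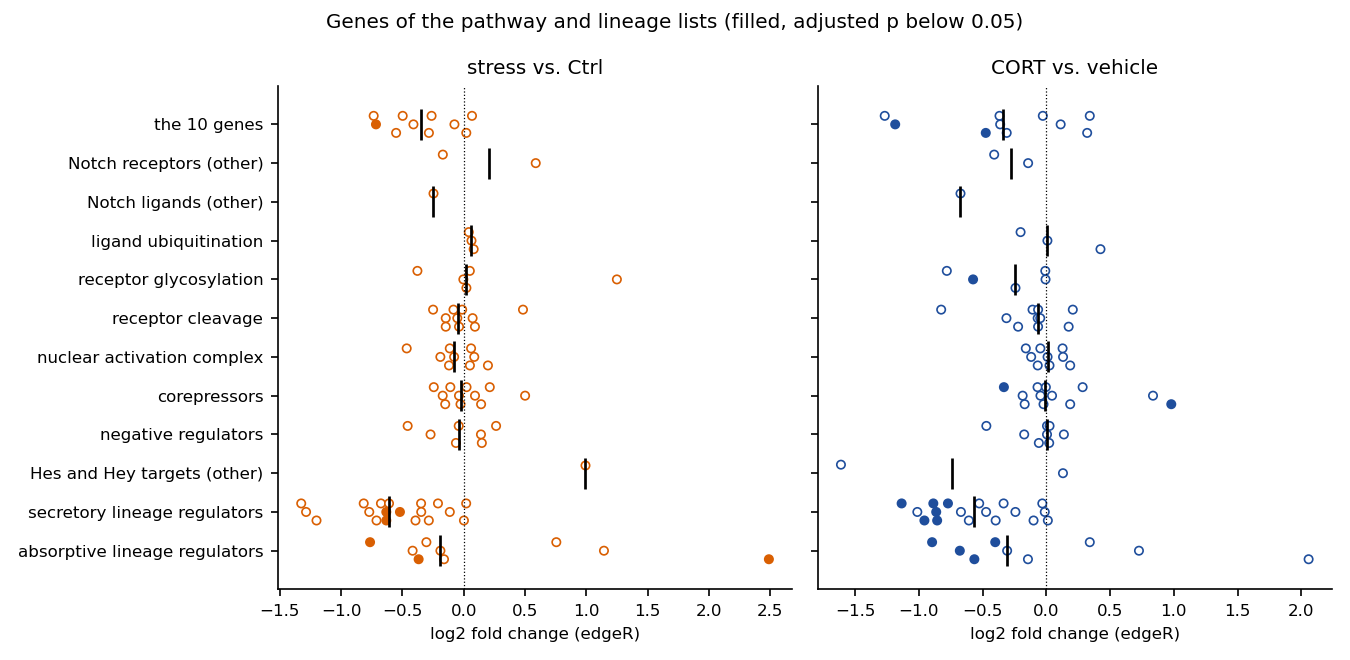
Log2 fold change (edgeR) of the 10 genes and of the genes in 11 lists of the pathway and the lineages in stress vs. Ctrl (left) and CORT vs. vehicle (right), with a point for each tested gene, filled where the adjusted p is below 0.05, and a bar for the list's median. Most secretory regulators lie left of 0 in both panels, with medians of -0.61 and -0.57. The median of the 60 other Notch genes, where tested, is -0.01 in stress and -0.05 in CORT, but single lists differ, such as -0.24 for receptor glycosylation in CORT.

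The genes most like *Hes1* and *Atoh1* over the 12 libraries were sought among 12812 genes with a mean of at least 1 CPM. For *Hes1* they were *Ntpcr* (Pearson's r = 0.90), *Frmd6*, *Plekhm2*, *Stard5* and *Zfp273* (r = 0.83), and for *Atoh1* they were *Zfp51* (r = 0.93), *Dhx57*, *Ube3b*, *P4ha1* and *Gnpda2* (r = 0.85). No gene of the Notch or lineage lists was among these 10. The libraries share their groups and depth, and these values are a description.

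Some counts may hold reads of overlapping genes, as no source says that reads were counted by strand. *Dll1* overlaps *A930024N18Rik* (22 to 148 counts per library, 1.29 to 4.20 CPM), *Dll4* overlaps *Gm14207* (2.10 to 5.95 CPM) and *Nrarp* overlaps *Gm38287* (at most 0.809 CPM), each on the opposite strand. Genes that overlap *Notch1* and *Notch2* were at most 1.29 CPM, and *Hes1*, *Hes6*, *Jag1* and *Atoh1* overlap none. Of the list genes with calls, *Tle1*, *Spen*, *Sox4*, *Hnf4a*, *Maf* and *Elf3* overlap another gene.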

How the data were processed

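RNA of sorted ISCs was sequenced in 12 libraries (150-bp pairs), 3 in each of 4 groups taken from the labels. The submitters' processing notes name HISAT2 2.2.1, StringTie 2.2.1 and mm10, whereas the methods of the study name featureCounts. The authors deposited estimated counts per gene, in which 1 count stood for 75 covered bases in all libraries, so a read pair makes up to 4 counts. The FPKM and the TPM per gene, and the coverage (a signal per base, not divided by library size), were deposited for each library by the authors. From coverage, only the unit of the counts was derived, and TPM was not used. A count of 0 allows up to 3 read pairs, or 12 counts, and such limits cover counting error only. A total of 0 columns had no sample.

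Counts were tested with edgeR 4.0.16 (quasi-likelihood F-test, TMM, filterByExpr, Benjamini-Hochberg over all tested genes, R 4.3.3), with 6 libraries in the fit of each comparison and 12 in that of the interaction. Genes were called at an adjusted p below 0.05. The SE behind each 95% confidence interval was the absolute log2 fold change divided by the square root of F. Alternatives used DESeq2 1.42.0 and its size factors, other filters, limma 3.58.1 on log2(FPKM + 1) and log2(FPKM + 0.1), thinned counts (to 15934907 per library), all 12 libraries in 1 fit, and each library left out. The fits were tested on simulated counts. Pairs of libraries of a group differed beyond sampling noise (chi-square per gene from 8.84 to 87.0), and none were identical.

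The 10 genes, the lists and the tests were chosen with earlier results of these data known. By rule the text names the 10 genes, list genes with an adjusted p below 0.05 in stress, CORT or the interaction, the most abundant gene of each list, and the 5 genes most like *Hes1* and *Atoh1*. *Tle3*, *Olfm4* and *Ascl2* were named after their values were seen. Promoters are from RefSeq (GRCm38.p6), and gene positions from GENCODE vM21, in which 47310 of 47729 genes were found.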

Additional observations from a re-analysis of the deposited data

Results flagged for a closer look

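Groups of 3 libraries were not examined for outlying samples. None of the 10 genes and none of the pathway list genes differed between the stress and the CORT response by the test of the interaction, but 2 of the marker genes listed for other cell types did. *Mmp7*, a Paneth cell protease, had a log2 difference of 2.18 between its stress and CORT responses (edgeR, adjusted p = 6.88e-04), at 16.5 to 25.7 CPM in Ctrl, 39.9 to 40.6 in stress, 79.1 to 99.9 in vehicle and 31.8 to 42.1 in CORT. *Fabp1*, a fatty acid carrier of enterocytes, had a log2 difference of 4.65 (adjusted p = 0.0294), at 8.61 to 10.9 CPM in Ctrl, 32.7 to 212 in stress, 20.7 to 57.0 in vehicle and 9.81 to 19.4 in CORT. Both were higher in all vehicle libraries than in all Ctrl libraries, and the part of this in the interaction was not tested.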

How the results depend on the processing

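No paired analysis was possible because the groups compared share fewer than 2 replicate numbers. Over the alternatives, 920 of 1070 log2 fold changes of single genes kept their direction and side of the threshold, 88 lost the call, 21 gained it and 41 changed sign, and the cause was not tested. *Nrarp* was called in CORT in every setting. Of the 10 genes in stress, 3 were called lower with DESeq2 (184 of 20756 genes in all). With all 12 libraries in 1 fit, 2 were (201 of 14415). Called lower were 0 without a filter on low counts (11 of 20756) and 0 with log2(FPKM + 1) and no filter (10 of 20756). With a library left out, 0 to 3 were called lower (14 to 289 of all genes). In CORT, 4 were called lower and 1 higher with DESeq2 (965 and 823 of 22292 genes in all). With log2(FPKM + 1) and no filter, 1 was called lower (346 of 22292). With a library left out, 1 to 3 were lower (269 to 526 of all genes) and 0 to 1 higher (234 to 477). Vehicle and the interaction had 0 under each alternative run.

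Of the list genes in stress, against 1 higher and 5 lower in the report, DESeq2 called 3 and 8, no filter 0 and 0, limma on log2(FPKM + 1) or log2(FPKM + 0.1) 0 and 1 and without a filter 0 and 0, all 12 libraries 2 higher, and leaving out a library 0 to 2 higher and 0 to 7 lower. In CORT, 6 instead of 12 were lower with log2(FPKM + 1) and no filter, and 5 to 10 with a library left out. In vehicle, DESeq2 called 2 higher and 2 lower, the limma fits 0 lower, and leaving out a library gave 0 to 1 higher and 0 to 1 lower. The interaction gave 0 to 1 higher with a library left out. All genes called in stress were 557 with DESeq2, 46 without a filter, 75 with log2(FPKM + 1), 849 without stress 3 and 56 without Ctrl 3, against 260, and 27 to 849 over the alternatives. The ranges were 503 to 1788 in CORT (against 1192), 0 to 297 in vehicle (against 109) and 12 to 386 in the interaction (against 56). With log2(FPKM + 1), CORT had 314 genes higher and 654 lower, against 533 and 659.

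Signs changed for genes whose log2 fold change in the report was small. *Notch2* in stress was at -8.3e-05 with log2(FPKM + 1), with and without a filter, and -9.4e-04 with log2(FPKM + 0.1). *Jag1* in vehicle was at 5.9e-04 with DESeq2, 0.0036 without a filter, 0.062 with log2(FPKM + 1), with and without a filter, and 0.10 with log2(FPKM + 0.1). *Hes6* in vehicle was at 0.0041 with limma in its 3 settings. *Gfi1* in vehicle was at 0.018 with log2(FPKM + 0.1) and 0.046 with thinned counts. With a library left out, *Notch1* in stress ranged from -0.16 to 0.030, *Notch2* -0.076 to 0.13, *Jag1* -0.19 to 0.39 and *Klf4* -0.11 to 0.17, with *Klf4* at -0.068 without stress 1+2 and -0.049 without stress 4+5+6, and *Notch2* at -0.039 without Ctrl 2. In CORT, *Atoh1* ranged from -0.10 to 0.11 and *Hes1* -0.076 to 0.23. In vehicle, *Notch2* ranged from -0.072 to 0.12, *Dll4* -0.12 to 0.25, *Jag1* -0.17 to 0.32, *Hes6* -0.12 to 0.096 and *Gfi1* -0.27 to 0.34. *Dll4* in the interaction ranged from -0.20 to 0.17, and was at -0.13 without stress 4+5+6. *Gfi1* and *Atoh1* rested on 20 to 83 and 63 to 173 counts in the shallower libraries.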
